A study of Mus musculus with 9 samples.

Results

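The genes described here are 9 of the 37725 in the deposited count table: *Stra6*, *Ttr*, *Lrat*, *Rpe65*, *Rdh5*, *Rdh10*, *Rlbp1*, *Rgr* and *Rrh*. They were listed by name, with no threshold on a measured value, because their products handle retinoids in the retinal pigment epithelium (RPE) or in Müller glia. RNA was counted in 31089 single cells from the retinas of 9 mice by split-pool barcoding, with 1 library sample per mouse made from its 2 retinas combined. All 9 mice carried the genotype labelled RPE65-ERT2-Cre.miR-211fl.miR-204fl, in which loxP sites flank the miR-204 and miR-211 loci and a tamoxifen-dependent Cre is expressed from *Rpe65*, so the controls held the Cre and the floxed alleles too. All were homozygous for the RPE65 M450 allele, known for its lower activity. The 4 control mice (S01 to S04) were injected with corn oil and the 5 double knockout (dKO) mice (S05 to S09) with tamoxifen at 75 mg/kg in corn oil, on 5 days from postnatal day 28, and the retinas were collected 6 months after this induction. The Cre driver is meant for RPE cells, whereas the labelled tissue is retina peeled from the eyecup, and RPE cells made up 0.917% of the cells. Mature microRNAs were not measured in these libraries, and no value from them checks that they were deleted.

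The visual cycle turns the all-trans retinal released by light back into the cis form that rod and cone opsins bind. RPE cells take up retinol, store it as esters, isomerise the esters with RPE65, oxidise the product and send cis-retinal back to the photoreceptors on binding proteins. Müller glia share some of these proteins and are known for a second retinoid supply that serves cones.

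The microRNAs deleted in the dKO mice are shown because the comparison of the mouse groups turns on them. Both mature sequences were found in RefSeq (build GRCm38.p6), miR-204-5p at chr19:22750610-22750631 and miR-211-5p at chr7:64205831-64205852, both on the plus strand. The capitals mark the seed, bases 2 to 8, which is UCCCUUU in both.
mmu-miR-204-5p: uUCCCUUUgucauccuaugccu
mmu-miR-211-5p: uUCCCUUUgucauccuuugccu
The seed match AAAGGGA was searched in the 3′ untranslated region of 1 transcript per gene in GENCODE (GRCm39). It was present in 1 of the 9 genes, *Rgr*, with 2 sites on the minus strand, at chr14:36758437-36758459 and chr14:36757576-36757598. Of all 20715 transcripts searched, 3324 (16.05%) held at least 1 such match, and a match is only a run of letters. Shorter matches, and matches to the other mature sequence made from each microRNA precursor, were not searched.
*Rgr* site, 1742 bases after the stop codon: aacaggccAAAGGGAtcagcatc
*Rgr* site, 2603 bases after the stop codon: atgagcgcAAAGGGAgaagctct

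Unique molecular identifiers (UMIs, counted RNA molecules) per mouse ranged from 15079143 in S05 to 66528160 in S06, and the mice shared 0 cell barcodes. Control mouse S04 and dKO mice S05 and S07 stood apart from the other 6. Rods made up 86.6%, 71.9% and 79.0% of their cells, against 32.9% to 46.5% elsewhere, and their median UMIs per cell were 4775, 4863 and 5412.5, against 8118 to 10340. Summed RNA of these mice held 35.4 to 51.8 *Xist* UMIs and 404 to 424 Y-linked UMIs per 1000000, while the other 6 held 1377 to 1570.4 and 4.25 to 4.96. Thus the 3 mice differed from the rest in sex-linked RNA as well as in cell composition. One animal number is given for both S06 and S07, although their sex-linked RNA differed, and they were taken as 2 mice.

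Cells were assigned to 15 types by marker UMIs, and no member served as a marker. A cell needed at least 3 markers of a type, a marker share of at least 8 to 64 UMIs per 10000 depending on the type (8 for RPE, 32 for Müller glia), and no second type passed. This gave 285 RPE cells, 2124 Müller glia, 16056 rods and 2056 cones. Of the 5 RPE markers, *Slc6a20a*, *Ermn*, *Kcnj13* and *Slc16a8* were found in 98.9%, 99.3%, 95.4% and 84.6% of RPE cells. The remaining RPE marker, *Best1*, was found in 0.702% of them and was thus nearly absent. RPE cells numbered 48, 37 and 50 in S01 to S03, 0 in S04, 2 in S05, 53 in S06, 9 in S07 and 43 each in S08 and S09. Of the 9 in S07, a mouse rich in Y-linked RNA, 4 held *Xist* and no Y-linked RNA and 3 the reverse, so whether all were its own cells is in doubt. Since a mouse entered a mean or a test only with at least 10 cells of the type, RPE values come from 3 control and 3 dKO mice, and S04, S05 and S07 do not enter them. Median UMIs per RPE cell were 2820 in S09, against 22654 to 34058 in the other 5 of these mice.

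Levels are given as UMIs per 1000000 UMIs of the type in the mouse (CPM), as mean ± SD over mice, and each gene is compared with itself across types. In 6 of the 9 genes, *Rpe65*, *Lrat*, *Rdh5*, *Rdh10*, *Rgr* and *Ttr*, every RPE value lay above every value of the other 12 types with means. *Rlbp1* and *Rrh* had 2 high types, RPE cells and Müller glia, and *Stra6* had RPE cells and endothelial cells. Further down the order, the ranges of neighbouring types overlapped for all 9 genes, apart from *Rdh10* in rods and cones.

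**Figure D1:**
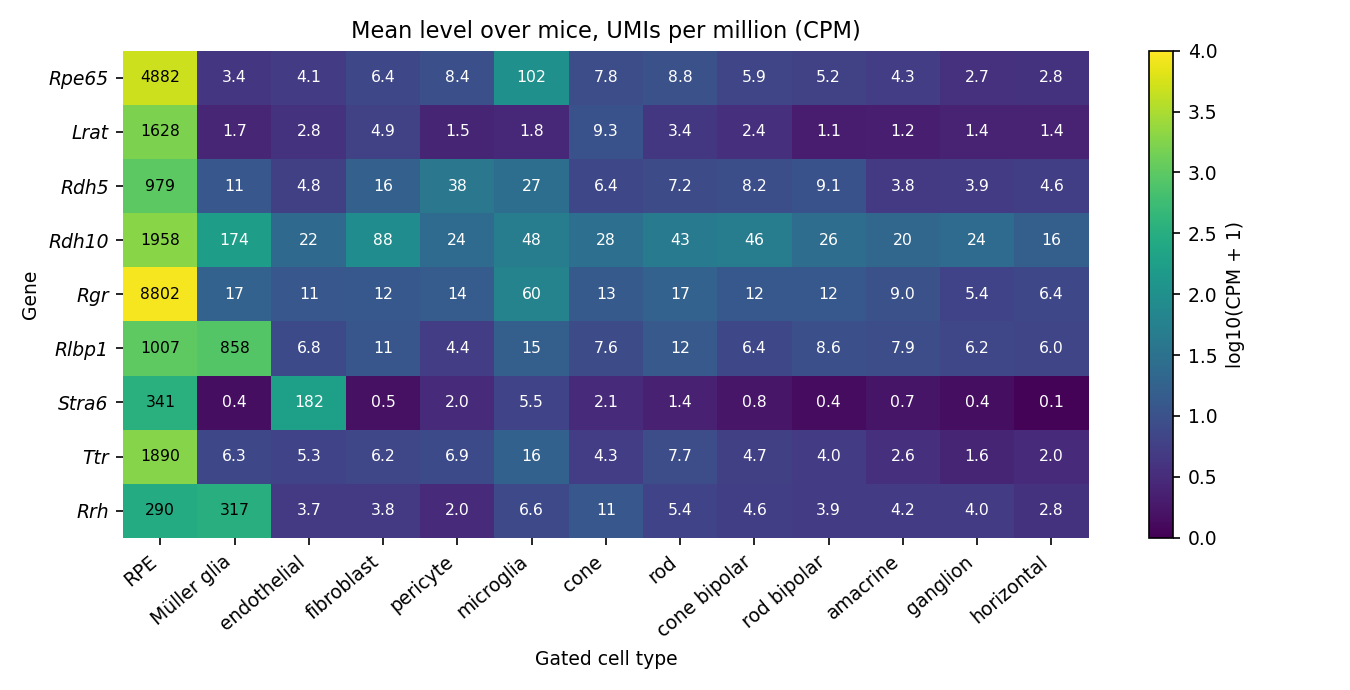
Mean CPM over mice of each gene (vertical) in each of 13 gated cell types (horizontal), written in the cell and coloured on a log10(CPM + 1) scale. RPE cells hold the highest mean of 8 genes, while *Rrh* is at 317 CPM in Müller glia and 289.8 CPM in RPE cells.

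The first group of genes takes retinol up and stores it. *Stra6*, the receptor that takes retinol from its plasma carrier into the cell, was at 341 ± 53.0 CPM in RPE cells (SD, n = 6 mice). In endothelial cells *Stra6* was at 182 ± 66.3 CPM (SD, n = 7 mice), and in Müller glia at 0.428 ± 0.426 CPM (SD, n = 9 mice). *Stra6* was thus shared by RPE and endothelial cells, whose ranges overlapped (251 to 402 and 74.7 to 274 CPM), although RPE cells were higher in 6 of 6 mice with both types. A *Stra6* UMI was found in 111 of 174 endothelial cells (63.8%, exact 95% interval 56.2% to 70.9%), against 113 of 16056 rods (0.704%). Median depths of these types were 11731.5 and 4685.5 UMIs, and with cells thinned to 2000 UMIs the shares were 30.6% of 170 and 0.225% of 15104 cells. Shallower cells, 4 endothelial cells and 952 rods, were left out of the thinned shares. The endothelial signal therefore exceeded the level in rods at equal depth. *Ttr* encodes transthyretin, the plasma protein that travels with the retinol carrier and is also made in RPE. Its level was 1890.2 ± 366 CPM in RPE cells, 7.68 ± 4.50 CPM in rods and 6.27 ± 2.92 CPM in Müller glia. *Lrat*, the enzyme that makes retinyl esters, was at 1628 ± 226 CPM in RPE cells. Its next highest mean was in cones, at 9.28 ± 3.31 CPM (SD, n = 9 mice), where it exceeded rods (3.42 ± 1.84 CPM) in 8 of 9 mice. Cones also had more cells with an *Lrat* UMI than rods after thinning to 2000 UMIs, 2.20% (exact 95% interval 1.61% to 2.93%) against 0.490% (0.385% to 0.615%).

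The second group isomerises the esters and oxidises the product. *Rpe65*, the isomerohydrolase of the cycle, was at 5629, 3659 and 5879.5 CPM in RPE cells of control mice S01, S02 and S03, and at 4587, 5377 and 4157 CPM in those of dKO mice S06, S08 and S09. The lowest value belonged to a control mouse and the groups overlapped. In Müller glia the *Rpe65* level was 3.36 ± 2.85 CPM (SD, n = 9 mice), or 0.0688% of the RPE mean. Microglia had the next highest mean of *Rpe65*, 102 ± 190.1 CPM (SD, n = 4 mice), but 53 of their 58 UMIs lay in 1 cell of S06. Of 87 microglia, 2 held UMIs of at least 6 members and carried 96.6% of the *Rpe65* UMIs of the type.

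*Rdh5*, a dehydrogenase that oxidises cis-retinol, was at 979 ± 124 CPM in RPE cells. Pericytes followed at 37.9 ± 14.7 CPM (SD, n = 8 mice), above rods in 8 of 8 mice, with 51 UMIs spread over 40 of 160 cells. Their level was therefore not set by a few cells, although it remained 3.88% of the RPE mean. *Rdh10*, which oxidises retinol in RPE and in other tissues, had the flattest pattern of the 3 enzymes. It was at 1958 ± 274 CPM in RPE cells, 174 ± 37.0 CPM in Müller glia, 87.9 ± 47.6 CPM in fibroblasts and 43.3 ± 4.59 CPM in rods. Müller glia held 13.5% of all 42481 *Rdh10* UMIs and RPE cells 54.1%, although the Müller level was 8.90% of the RPE level, since Müller glia were the more numerous.

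The third group binds retinoids. *Rlbp1* encodes CRALBP, which carries cis-retinoids in both cell types. Its RPE level was 1103, 999.8 and 1084 CPM in S01, S02 and S03, and 1024, 859 and 974 CPM in S06, S08 and S09. Müller glia ran from 595 to 1021 CPM with a median of 859 over 9 mice, which overlapped the RPE values. The third highest mean, 15.03 CPM in microglia, was far under both. *Rrh* encodes peropsin, an opsin-like protein known from RPE microvilli. Its RPE level was 300.1, 315 and 266 CPM in S01 to S03, and 267, 273 and 319 CPM in S06, S08 and S09. In Müller glia *Rrh* ran from 277 to 374 CPM with a median of 319.6 over 9 mice, and it exceeded the RPE level in 5 of the 6 mice with both types. Müller glia held 63.0% of all 16621 *Rrh* UMIs in the table. *Rrh* was thus as much a Müller transcript as an RPE transcript, whereas the related *Rgr* was not. *Rgr*, an opsin that isomerises retinal in light, was at 8802 ± 619 CPM in RPE cells and at 16.997 ± 9.23 CPM in Müller glia. The Müller level of *Rgr* was close to that of rods, 17.4 ± 9.57 CPM. Cones had 11.1 ± 2.22 CPM of *Rrh*, above rods (5.44 ± 1.46 CPM) in 9 of 9 mice.

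**Figure D2:**
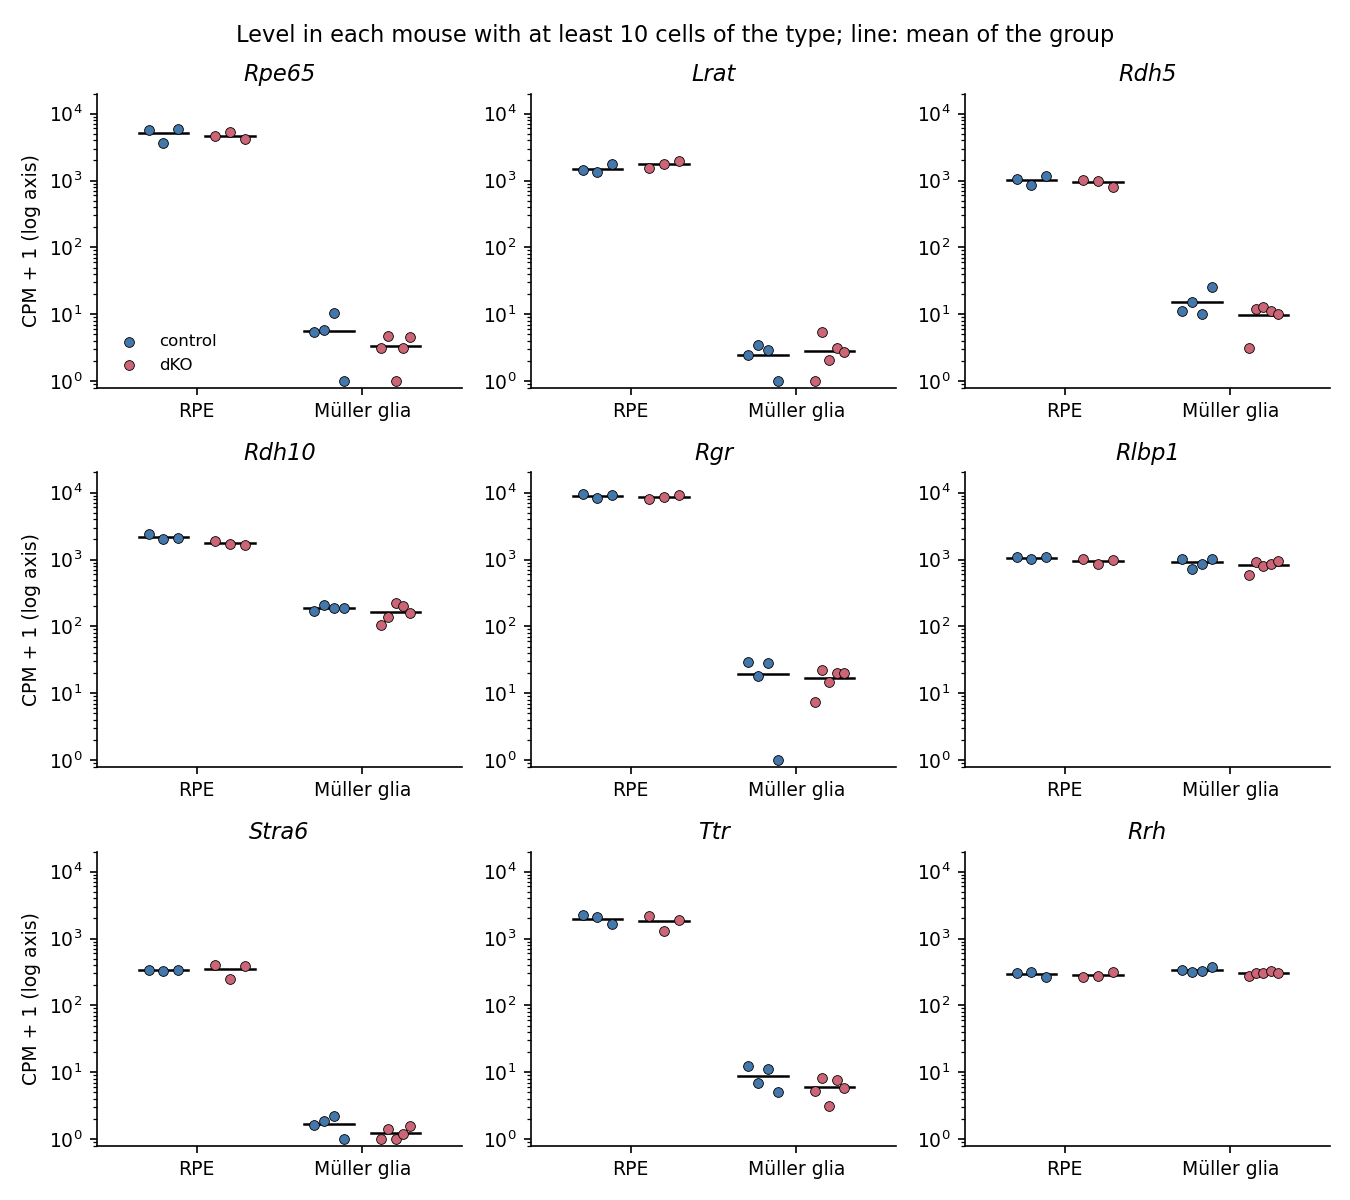
Level of each gene in every mouse with at least 10 cells of the type, as CPM + 1 on a log axis, for RPE cells (3 control, 3 dKO) and Müller glia (4 control, 5 dKO). Points are mice and lines are group means. *Rlbp1* and *Rrh* sit at like heights in both types, and the other genes are lower in Müller glia in every mouse with both types.

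RPE cells and Müller glia were compared within the 6 mice that had both, with the mouse as a block. The question was which genes the RPE holds above the glia of the same mouse. Of the 9 genes, 8 were higher in RPE cells (edgeR quasi-likelihood test, adjusted p under 0.05 over 12445 genes). Over all genes tested, 31.5% were called higher in RPE cells, 35.0% lower and 66.5% in either direction. Since most genes differed between the types, a call alone says little and the sizes are given. *Rpe65* had a log2 fold change of 10.29 ± 0.24 (SE, adjusted p = 2.9e-11) and was higher in 6 of 6 mice. The other called genes apart from *Rlbp1* ran from 3.70 for *Rdh10* to 9.60 for *Lrat* on the log2 scale, with 6.74 for *Rdh5*, 8.18 for *Ttr*, 8.87 for *Rgr* and 9.29 for *Stra6*. All of these were also higher in 6 of 6 mice. The Müller side of *Stra6* and *Lrat* was very low, with 19 and 80 UMIs in all 2124 Müller glia. The sizes of these 2 differences are thus loosely set and rest on the RPE counts. *Rlbp1* differed by 0.41 ± 0.08 (SE, adjusted p = 0.00111), was higher in 6 of 6 mice, and was a small difference beside the rest. *Rrh* differed by 0.09 ± 0.08 (SE, adjusted p = 0.354) and did not pass.

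The median log2 difference of the 9 genes was 8.18, against −0.08 over all 12445 genes. Since the 9 were listed for known roles in RPE cells or Müller glia, a difference was likely in advance and the contrast is only descriptive. Scaling by library size in place of TMM, edgeR's usual factors, moved the median of all genes to −0.30, so small differences depended on the scaling. Under it *Rlbp1* was at 0.19 (adjusted p = 0.0728) and the *Rrh* estimate turned to −0.14 (adjusted p = 0.148). *Rlbp1* also missed the threshold with a looser gate (0.28, adjusted p = 0.115), with no minimum of cells (0.28, adjusted p = 0.323), and in the dKO mice alone (0.33, adjusted p = 0.0605), the last a fit chosen after seeing the data. Over all 17 alternatives the adjusted p of *Rlbp1* ran from 8.0e-06 to 0.323 and that of *Rrh* from 0.148 to 0.924, and *Rrh* was also below 0 without a filter on low counts (−0.04) and with no minimum of cells (−0.03). The other 7 genes passed in all 17.

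Rods gave a reference level outside RPE cells and Müller glia. Of the 8 genes with enough counts, 4 were higher in Müller glia than in rods of the same 9 mice and 2 were lower (edgeR, adjusted p under 0.05, 13555 genes tested). Over all genes tested, 37.0% were called higher, 39.6% lower and 76.6% in either direction. *Rlbp1* was higher by 6.20 ± 0.11 (log2, SE, adjusted p = 1.2e-15) and *Rrh* by 5.90 ± 0.12 (adjusted p = 2.5e-15), each in 9 of 9 mice. *Rdh10* was higher by 2.02 ± 0.11 (adjusted p = 7.7e-11) in 9 of 9 mice, and *Rdh5* by 0.59 ± 0.15 (adjusted p = 0.00208) in 8 of 9. Müller glia thus held 3 members far above the rod level and *Rdh5* slightly above it. *Rpe65* was lower in Müller glia than in rods, at −1.29 ± 0.28 (adjusted p = 6.6e-04), and *Lrat* at −0.80 ± 0.22 (adjusted p = 0.00394), each lower in 8 of 9 mice. *Rgr* (0.10 ± 0.15, adjusted p = 0.578) and *Ttr* (−0.29 ± 0.15, adjusted p = 0.0927) did not pass, and *Stra6* had too few counts. Without the filter on low counts *Stra6* was lower in Müller glia (−1.39, adjusted p = 0.00238).

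**Figure D3:**
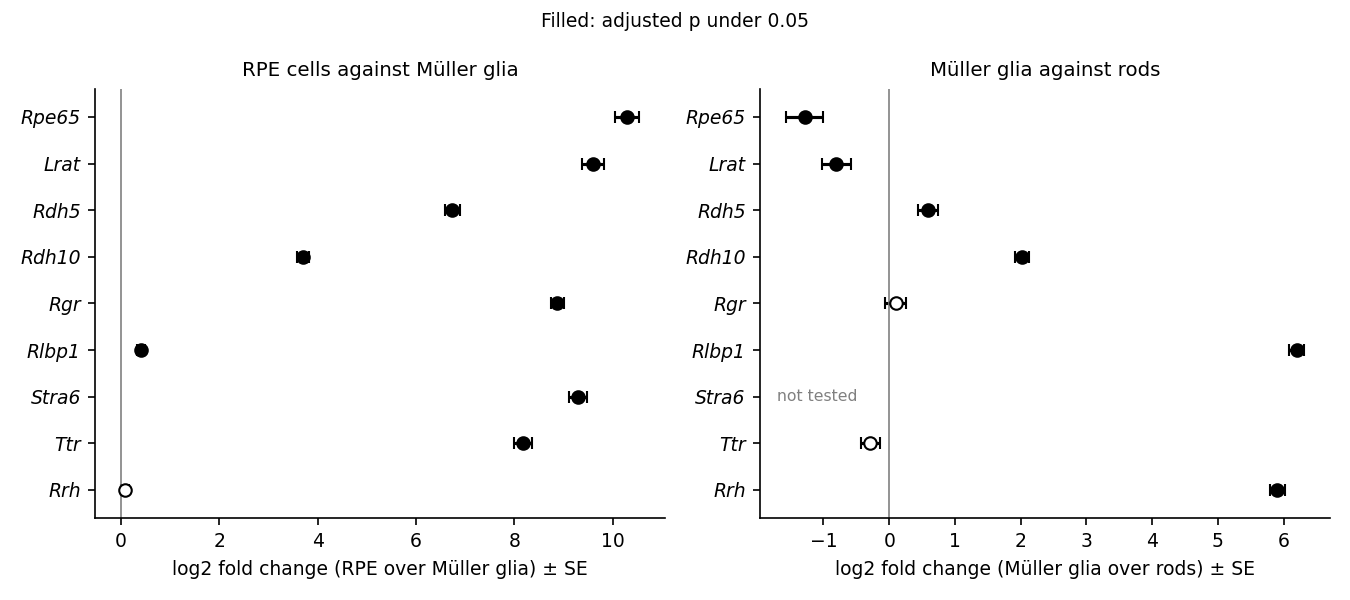
Fitted log2 fold change of each gene, RPE cells over Müller glia (left, 6 mice) and Müller glia over rods (right, 9 mice). Bars are the SE, and filled points have an adjusted p under 0.05. *Rlbp1* and *Rrh* lie near 0 on the left and near 6 on the right, while *Rpe65* and *Lrat* lie above 9 on the left and below 0 on the right.

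These smaller differences were less firm. *Rpe65* missed the threshold in a fit without the mouse block (−0.95, adjusted p = 0.0628, range over 20 alternatives 4.0e-11 to 0.0628). *Lrat* missed it there (−0.45, adjusted p = 0.3004), with S06 and S07 summed as 1 mouse (adjusted p = 0.0646) and in the dKO mice alone (adjusted p = 0.0786), in a range of 0.00192 to 0.3004. *Rdh5* missed it in the dKO mice alone (0.43, adjusted p = 0.0965, range 5.6e-04 to 0.0965). *Ttr* passed as lower in Müller glia without S01 (−0.42, adjusted p = 0.0416), without S03 (−0.53, adjusted p = 0.00599), without S09 (−0.44, adjusted p = 0.0249) and with library size (−0.37, adjusted p = 0.0353), in a range of 0.00599 to 0.980. The fits in 1 mouse group were chosen after seeing the data. Without S04, S05 and S07, the same 6 genes passed, with *Rlbp1* at 6.10, *Rrh* at 5.77, *Rdh10* at 1.99, *Rdh5* at 0.54, *Lrat* at −0.81 and *Rpe65* at −1.31.

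The members found outside RPE cells fell into unlike patterns relative to their RPE level. In rods, *Rpe65*, *Rgr* and *Lrat* stood at 0.180%, 0.197% and 0.210% of the RPE mean, so these 3 were near a common share, with *Stra6* (0.396%) and *Ttr* (0.406%) next. *Rdh5* (0.740%), *Rlbp1* (1.19%), *Rrh* (1.88%) and *Rdh10* (2.21%) were at larger shares of their RPE level in rods. Rod levels of *Rpe65* were 3.77, 1.28 and 2.67 CPM in S04, S05 and S07, which had 0 to 9 RPE cells, and 5.76 to 19.7 CPM in the 6 mice with 37 to 53 RPE cells. Rod levels of *Rdh10* were 37.6 to 39.99 CPM in those 3 mice and 41.5 to 50.1 CPM in the other 6. The rod *Rgr* level was 4.97, 9.92 and 6.60 CPM in S04, S05 and S07 and 16.7 to 35.7 CPM in the other 6. That of *Lrat* was 0.958, 3.20 and 0.933 CPM and 2.75 to 6.78 CPM, so its value in S05 lay within the range of the other 6. That of *Ttr* was 2.63, 4.16 and 2.10 CPM, against 6.05 to 14.9 CPM. The rod levels of *Rpe65*, *Rgr* and *Ttr* were thus lower in the 3 mice with few RPE cells than in each of the other 6, and that of *Lrat* in S04 and S07 but not S05. Those of *Rdh10* were also lower, by a smaller margin. Those of *Stra6*, *Rlbp1*, *Rrh* and *Rdh5* were lower in 1 or 2 of the 3 mice and within the range of the other 6 in the rest. The 5 RPE markers in the same rods summed to 5.45, 4.32 and 4.80 CPM in S04, S05 and S07. In the other 6 mice they summed to 7.64 to 23.6 CPM. The part of RNA from other cells in the rod levels was not tested. A group of 22 rods held at least 6 of the 9 members and 22.5% of the *Rpe65* UMIs of rods, and whether they were doublets was not tested.

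**Figure D4:**
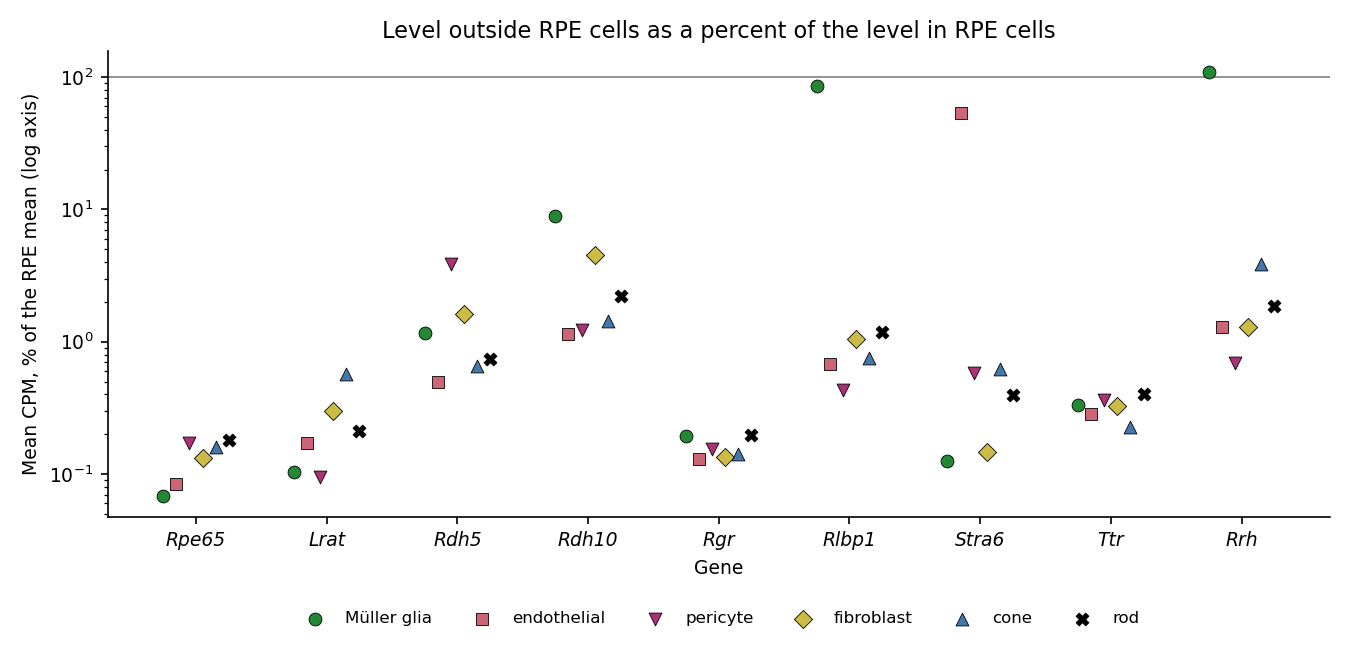
Mean CPM of each gene in 6 cell types as a percent of its mean in RPE cells (log axis, line at the RPE level). Symbols mark the types. Müller glia stand at 85.2% for *Rlbp1* and 109.4% for *Rrh*, endothelial cells at 53.4% for *Stra6*, and rods between 0.180% and 2.21%.

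Single cells showed the same split. Of 285 RPE cells, 215 held UMIs of all 9 members, and the median was 9 members per cell. Müller glia had a median of 3 members per cell and rods of 0. Both *Rlbp1* and *Rrh* were found in 1958 of 2124 Müller glia (92.2%) and in 232 of 285 RPE cells (81.4%). That RPE share was 83.8% to 92.5% in S01, S02, S03, S06 and S08. In S05, S07 and S09 it was 50.0% (of 2 cells), 33.3% (of 9) and 51.2% (of 43). *Rrh*, with or without *Rlbp1*, was found in 93.3% of Müller glia (exact 95% interval 92.2% to 94.3%) and 2.51% of rods (2.27% to 2.76%). Median depths of these 2 types were 14819 and 4685.5 UMIs. With cells thinned to 2000 UMIs, and 22 Müller glia, 18 RPE cells and 952 rods under that depth left out, the shares were 45.7% in Müller glia, 37.5% in RPE cells and 0.867% in rods. At equal depth *Rrh* was thus found in fewer Müller glia than at full depth, and in a larger share of them than of rods. *Rpe65* was found in 98.2% of RPE cells and 5.46% of Müller glia, and after thinning in 97.0% of RPE cells, 0.714% of Müller glia and 1.24% of rods. A further 22 cells passed the astrocyte gate, too few per mouse for a mean, and 87 *Rlbp1* UMIs in them gave a pooled level of 201 CPM, between Müller glia and rods. Müller markers made up a median of 51.9 UMIs per 10000 in these 22 cells, above their astrocyte markers at 38.1, so the level may not be that of astrocytes.

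Across the 13 types, the genes other than members most like each pattern were found by Pearson correlation of mean log2(CPM + 1), among 14139 genes with at least 10 CPM in some type. The points share libraries and the RPE and Müller values dominate them, so the values are descriptive. The 3 genes nearest to *Rpe65* were *Tmem72* (r = 0.993), *Gm45895* (r = 0.991) and *E130120K24Rik* (r = 0.990), all with Müller and rod means under 2 CPM. Nearest to *Rlbp1*, members aside, were *Gldc* (r = 0.982), the glycine decarboxylase, *Aass* (r = 0.970), an enzyme of lysine breakdown, and *Dapl1* (r = 0.966). *Gldc* was at 979 CPM in RPE cells and 435 CPM in Müller glia, *Aass* at 59.6 and 54.9 CPM and *Dapl1* at 19.6 and 60.1 CPM. Their likeness to *Rlbp1* is how they were picked, and the values only show the balance of the 2 types, which differed among the 3. Nearest to *Rdh10* were *Col9a3* (r = 0.976), a collagen chain, *Sostdc1* (r = 0.962) and *Itgb8* (r = 0.954), an integrin subunit. Among the members, *Rlbp1* and *Rrh* were alike at r = 0.977, and *Rpe65* and *Rgr* at r = 0.984, while *Rpe65* and *Rrh* were at r = 0.608.

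The members are spread over the genome (GRCm39). *Rpe65* (chr3:159304802-159330958, plus strand), *Lrat* (chr3:82799886-82811288, minus) and *Rrh* (chr3:129598057-129616236, minus) are on chromosome 3, far from each other. *Rdh10* is at chr1:16175555-16203958 (plus), *Rlbp1* at chr7:79024602-79038176 (minus), *Stra6* at chr9:57970967-58063543 (plus), *Rdh5* at chr10:128749385-128759341 (minus) and *Rgr* at chr14:36756866-36770921 (minus). The 8 genes listed with positions were thus not neighbours, and the position of *Ttr* is not printed. *Rdh5* overlaps *Bloc1s1* on the same strand, which was at 5.45 CPM in RPE cells when pooled and 0.632 CPM in Müller glia. On the other strand, *Lrat* overlaps *Rbm46os* (56.0 CPM in RPE cells, 6.26 CPM in Müller glia), and *Stra6* overlaps *Ccdc33* (14.8 and 0.151 CPM) and *Islr* (15.3 and 0.271 CPM), and *Ttr* overlaps *Gm16090* (8.97 and 0.422 CPM). *Rgr* and *Stra6* also overlap 1 gene each on the other strand, *Gm56749* and *Gm68021*, without a row in the count table. *Stra6* and *Ttr* each also overlap 1 gene on the same strand, *Gm16131* and *Gm58847*, without a row in the count table. *Rrh* overlaps the antisense RNA *Gm36130*, which has no row in the count table.

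The set of RefSeq (GRCm38.p6) promoters used here covered 7 of the 9 genes and held no entry for *Rdh10* and *Ttr*. The 250 bases before the start of *Rpe65*, *Rgr*, *Rlbp1* and *Rrh* are shown because these genes carry the contrast between an RPE pattern and a shared pattern. They lie at chr3:159598931-159599180 (plus strand) for *Rpe65*, chr14:37049015-37049264 (minus) for *Rgr*, chr7:79387028-79387277 (minus) for *Rlbp1* and chr3:129822506-129822755 (minus) for *Rrh*. The letters GGATTA (known from OTX factors), ACAAT (SOX), CACGTG (E-box) and CATGTG (M-box) were searched on both strands, and capitals mark a match on either strand.
*Rpe65*: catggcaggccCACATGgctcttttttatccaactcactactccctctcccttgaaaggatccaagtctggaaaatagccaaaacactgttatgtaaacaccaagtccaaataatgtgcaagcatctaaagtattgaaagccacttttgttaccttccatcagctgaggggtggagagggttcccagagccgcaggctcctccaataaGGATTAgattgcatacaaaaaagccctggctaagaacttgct
Rgr: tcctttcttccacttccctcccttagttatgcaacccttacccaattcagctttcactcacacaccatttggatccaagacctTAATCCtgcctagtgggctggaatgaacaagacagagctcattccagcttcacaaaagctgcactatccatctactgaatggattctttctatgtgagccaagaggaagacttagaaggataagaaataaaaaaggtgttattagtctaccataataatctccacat
Rlbp1: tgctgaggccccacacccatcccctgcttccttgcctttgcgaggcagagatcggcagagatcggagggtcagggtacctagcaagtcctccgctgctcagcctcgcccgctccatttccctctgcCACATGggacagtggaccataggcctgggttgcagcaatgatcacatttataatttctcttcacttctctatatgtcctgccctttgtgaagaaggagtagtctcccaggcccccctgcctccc
Rrh: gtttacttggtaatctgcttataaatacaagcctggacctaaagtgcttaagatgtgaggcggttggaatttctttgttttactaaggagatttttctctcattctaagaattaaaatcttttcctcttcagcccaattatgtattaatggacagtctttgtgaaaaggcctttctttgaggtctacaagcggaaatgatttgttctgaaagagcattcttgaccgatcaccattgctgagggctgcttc
GGATTA was found before *Rpe65*, 42 bases from the start, and before *Rgr*, 167 bases from it. CATGTG was found before *Rpe65* (239 bases) and *Rlbp1* (124 bases), ACAAT before *Rdh5* and *Stra6*, and CACGTG before none of the 7. Of all 32851 promoters of the same length, 6.25% held GGATTA, 27.7% ACAAT, 6.02% CACGTG and 12.3% CATGTG. The *Rrh* window held none of the 4, which says only that these letters are not in it.

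The dKO mice were then compared with controls to ask whether loss of the microRNAs went with a change of these genes. Only the dKO mice were given tamoxifen, so its own effect cannot be told apart here from that of the deletion. In RPE cells (3 control and 3 dKO mice) none of the 9 genes passed the edgeR test, with 0 of the 9 at an unadjusted p under 0.05. Across all 10271 genes tested, edgeR called 0 (0%) at an adjusted p under 0.05, with 552 at an unadjusted p under 0.05, and DESeq2 called 4, none of them a member. Estimates of the 9 ran from −0.27 for *Rdh10* to 0.23 for *Lrat* on the log2 scale, with a median of −0.08 against 0.00 over all genes. *Rgr*, the member with 2 seed matches, was at 9666, 8182 and 9225 CPM in S01 to S03 and at 8119.5, 8542 and 9077 CPM in S06, S08 and S09. The groups overlapped, and the *Rgr* estimate was −0.05 ± 0.17 (SE, adjusted p = 0.999, range over 15 alternatives 0.953 to 0.99996). *Rpe65* had an estimate of −0.08 ± 0.22 (SE, adjusted p = 0.999, range 0.886 to 0.99996). *Rdh10* and *Rlbp1* estimates stayed under 0 in 15 of 15 alternatives, while the other 7 kept their sign in 10 to 14.

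*Rdh10* was the 1 member of 9 whose groups did not overlap in RPE cells, where 10.5% of all genes tested had groups that did not overlap. It was at 2404, 1995 and 2075 CPM in control mice S01 to S03 and at 1915, 1726 and 1631 CPM in dKO mice S06, S08 and S09. Every dKO value lay under every control value. The *Rdh10* difference was −0.27 ± 0.15 (log2, SE) with an adjusted p of 0.958, a range of 0.618 to 0.99996 over 15 alternatives, and did not pass. Summed marker levels in these RPE cells also differed in part. The 5 horizontal cell markers summed to 14.2, 14.7 and 10.1 CPM in the controls and 39.7, 17.6 and 29.5 CPM in the dKO mice, groups that did not overlap, with *Prox1* the most abundant and 1 or 2 of the 5 at 0. The 5 melanocyte markers summed to 71.9, 122 and 78.7 CPM in the controls and 74.9, 46.5 and 60.1 CPM in the dKO mice, with *Sox10* the most abundant and 1 or 2 of the 5 at 0. The RPE markers summed to 3357, 3594 and 4329 CPM in the controls and 4077, 4898 and 4445 CPM in the dKO mice, with *Slc6a20a* the most abundant and 0 or 1 of the 5 at 0. The part of these levels in the *Rdh10* values was not tested.

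**Figure D5:**
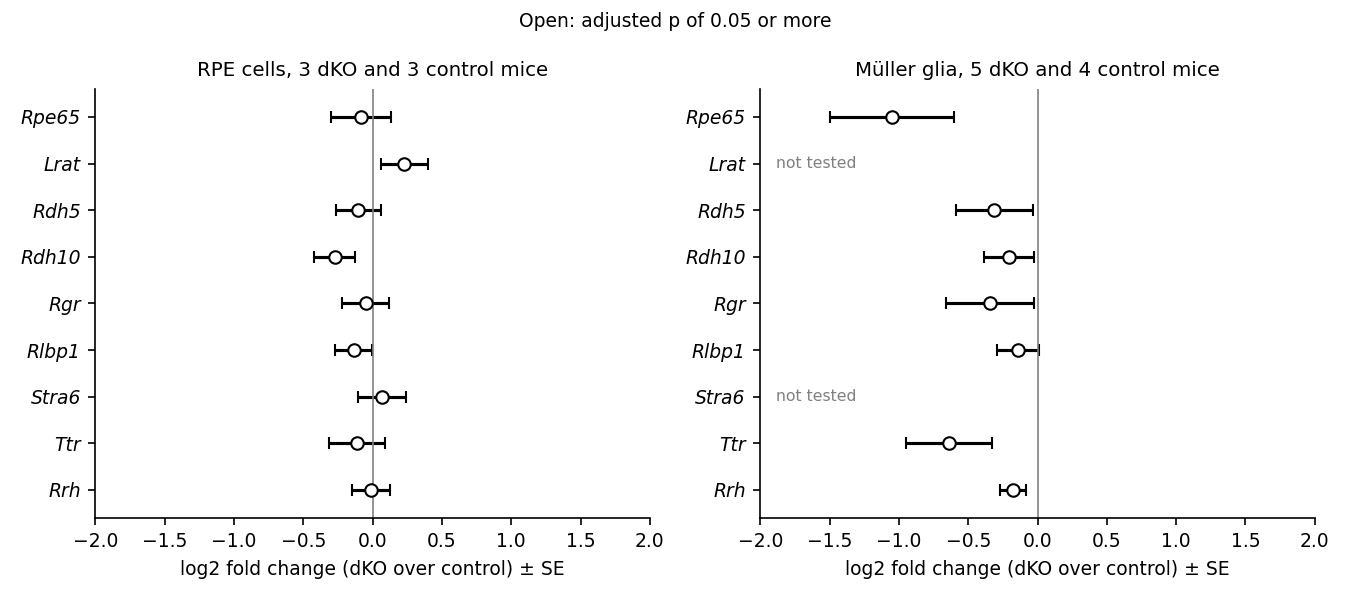
Fitted log2 fold change of each gene, dKO over control, in RPE cells (left, 3 and 3 mice) and Müller glia (right, 5 and 4 mice). Bars are the SE, and open points have an adjusted p of 0.05 or more. RPE estimates lie between −0.27 and 0.23, and Müller estimates between −1.05 and −0.14.

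In Müller glia (4 control and 5 dKO mice) 7 of the 9 genes had enough counts, and none passed, with 1 of the 7 (*Rpe65*) at an unadjusted p under 0.05 (edgeR). Across all 13125 genes tested, edgeR called 0 (0%), with 295 at an unadjusted p under 0.05, and DESeq2 called 0. All 7 estimates were under 0, from −0.14 for *Rlbp1* to −1.05 for *Rpe65*, apart from *Rlbp1* at 0.06 without S04, S05 and S07, where Müller glia numbered 21, 34 and 68. The median of the 7 was −0.31, while that of all genes tested rounds to 0. The 5 Müller markers in these cells summed to 12164, 11071, 13038 and 10424 CPM in S01 to S04 and to 7663, 12095, 9763, 12509 and 11224 CPM in S05 to S09, with *Glul* the most abundant and none at 0. The lowest sums were those of dKO mice S05 and S07, and S05 also stood apart in the cone and rod bipolar markers given below. Not every marker list is given here. In a further list, not given, the summed levels of control mouse S04 and dKO mice S05 and S07 lay above those of all the other 6. The 6 cone markers summed to 49.6, 67.8, 55.9 and 73.2 CPM in S01 to S04 and to 436, 47.2, 53.5, 45.4 and 65.0 CPM in S05 to S09, with *Arr3* the most abundant and 3 at 0 in S04. The 5 rod bipolar markers summed to 251, 197, 323 and 187 CPM in S01 to S04 and to 914, 274, 283, 142 and 149.97 CPM in S05 to S09, with *Prkca* the most abundant and 0 to 3 at 0. The part of these levels in the estimates was not tested. In Müller glia 0 of the 7 had groups that did not overlap, against 1.10% of all genes tested. *Rrh* was at 336, 319.6, 324 and 374 CPM in S01 to S04 and 277, 303, 299 and 320.4 CPM in S05 to S08, and 301 CPM in S09, so the groups overlapped through S08. Its difference was −0.18 ± 0.09 (SE, adjusted p = 0.99997, range over 17 alternatives 0.808 to 0.999996).

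*Rpe65* in Müller glia rested on 0 to 39 UMIs per mouse, and its estimate of −1.05 ± 0.45 (SE, adjusted p = 0.99997, range 0.808 to 0.999996) came from a low level in both groups, 4.67 and 2.31 CPM. The 5 RPE markers in the same Müller glia summed to 7.37, 5.51, 5.74 and 12.2 CPM in controls S01 to S04 and to 2.12, 5.88, 6.42, 8.57 and 3.94 CPM in dKO mice S05 to S09. Between 0 and 4 of the 5 were at 0 in a mouse, and *Slc6a20a* was the most abundant in 5 of the 9. The part of RNA from other cells in the low *Rpe65* values was not tested.

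Whether the difference between groups was itself unlike in the 2 types was asked with an exact permutation test over the 6 mice with both types, on log2(CPM + 1) in RPE cells minus that in Müller glia. With 3 mice against 3 the smallest possible two-sided p is 0.1. *Stra6* reached it, at 7.48 ± 0.22 in controls and 7.95 ± 0.22 in dKO mice (SD, n = 3 each, exact p = 0.1). Its Müller level rested on 1 to 5 UMIs per mouse, so the value carries little. The exact p of the other 8 members ran from 0.2 for *Rlbp1* to 1.0 for *Rdh5*. No member could have passed a threshold of 0.05 in this test, so it does not say whether the 2 types differ.

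*Stra6* in endothelial cells was at 223, 274 and 193 CPM in S01 to S03, and at 218, 74.7, 128 and 163 CPM in S06 to S09. The groups overlapped through S06, and the difference was not tested.

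Of 36 other genes of retinoid handling, 23 had enough counts to compare RPE cells with Müller glia, and 9 were called higher in RPE cells and 7 lower, where 31.5% and 35.0% of all genes tested were. The RPE side held *Abca4* (4.24, log2), the flippase for retinal adducts, *Retsat* (2.98), which saturates retinol, and *Degs1* (2.69), a desaturase linked to retinol isomerisation. *Abca4* was highest in rods, at 2638 CPM, and was at 1035 CPM in RPE cells. *Aldh1a1* (−6.55) and *Cyp26b1* (−3.20), which make and break down retinoic acid, were lower in RPE cells, whereas *Dhrs3* (2.54), a retinal reductase of the same part of the list, was higher. *Dhrs3* is named after its value was seen. *Cyp26a1*, which degrades retinoic acid, had 451 UMIs in Müller glia and 0 in RPE cells, so it was at least 53.9-fold higher in Müller glia, taking 3 UMIs over all RPE cells of the 6 mice as the floor. *Cd36*, a lipid receptor, had 554 and 2 UMIs, a ratio of 99.4 (exact 95% interval 27.4 to 823). *Aldh1a1* was highest in fibroblasts, at 142 CPM against 106 CPM in Müller glia. *Cyp26b1* was highest in endothelial cells, at 42.2 CPM against 18.5 CPM in Müller glia, and *Cyp26a1* in Müller glia, at 17.5 CPM. Müller glia thus held *Rlbp1* and *Rrh* together with *Aldh1a1*, *Cyp26a1* and *Cyp26b1*, and little *Rpe65*.

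Between Müller glia and rods, 9 of 23 were called higher in Müller glia and 12 lower, where 37.0% and 39.6% of all genes tested were. Higher were *Aldh1a1* (5.87, log2), *Cd36* (5.15) and *Cyp26b1* (5.12), and lower were the photoreceptor genes *Rdh8* (−5.43), *Rdh12* (−4.85), *Abca4* (−4.84) and *Rbp3* (−4.39). In the dKO comparison edgeR called 0 of 17 in RPE cells, with 1 at an unadjusted p under 0.05, and 0 of 25 in Müller glia, with 0 at that level. DESeq2 called 4 and 0 of all genes in the 2 types.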

How the data were processed

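The deposited matrix holds raw counts (UMI counts per gene and cell), made by the authors with split-pipe on GRCm39 and filtered in Seurat 4.3.0 under R 4.2.2. The totals the authors list per cell equalled its sums in all 31089 cells. The members and gene lists were chosen with earlier results of these data known. Named are the members, up to 8 other retinoid genes past the threshold with the largest change (not every such gene is named), and the 3 genes other than members most correlated with *Rpe65*, *Rlbp1* and *Rdh10*. Counts were summed per mouse and gated type and tested with edgeR 4.0.16 in R 4.3.3 (quasi-likelihood, TMM, filterByExpr, Benjamini-Hochberg) and DESeq2 1.42.0, with the mouse as a block between types. Other values used Python 3.11.15 and scipy 1.17.1. Intervals cover counting error only. Alternatives were library size scaling, no filter on low counts, gates of 2 or 4 markers, no minimum of cells, no block, S06 and S07 summed, and fits leaving out mice. The fits were tested on simulated data. Cells passing several gates (1126) or none (3651) were left out.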

Additional observations from a re-analysis of the deposited data

Results flagged for a closer look

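Of 36 sets of values of 1 gene in Müller glia or rods of 1 group, 2 held a mouse far from the others, and chance alone gives about 1 in 20. *Stra6* in rods of dKO mouse S06 was at 2.77 CPM (29 UMIs), against 1.11 CPM in the next of the 5 dKO mice and 0.767 CPM in the lowest. *Rdh5* in Müller glia of dKO mouse S05 was at 2.12 CPM (1 UMI in 34 cells), against 8.998 CPM in the next and 11.8 CPM in the highest.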

How the results depend on the processing

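No result changed direction past a threshold under any alternative. In dKO RPE cells the count of called genes was 4 with DESeq2, 133 without a filter on low counts, 9 with no minimum of cells and 0 to 1 on leaving out 1 mouse at a time, the 1 arising without S09. In dKO Müller glia it was 25 without the filter and 0 to 1 on leaving out 1 mouse, the 1 arising without S01. None of these calls was a member. With an absolute log2 fold change above 1 required as well, the counts were 4690 between RPE cells and Müller glia and 5641 between Müller glia and rods. The cause was not tested, apart from the last 2, which follow from the stricter rule. Leaving out 1 mouse at a time, with no such requirement, gave 7747 to 8092 genes in place of 8279 and 9987 to 10592 in place of 10379. Of 153 member values between RPE cells and Müller glia, 149 kept their side of the threshold, and of 160 between Müller glia and rods, 151 did. These counts include fits that could not differ, since leaving out S04, S05 and S07 removes no mouse where RPE cells are compared, and no minimum of cells adds none between Müller glia and rods. No paired analysis was possible because the control and dKO mice are different animals. RPE values rest on 3 mice a group, S04, S05 and S07 having at most 9 RPE cells, and levels under about 1 CPM rest on few UMIs.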
